A study of Mus musculus with 6 samples.

Results

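Genomic imprinting is the expression of a gene mainly from the allele inherited from 1 parent, which is set by DNA methylation laid down in the germ line and kept after fertilisation. Imprinted genes lie in clusters in which a methylated control region acts on several neighbours, often through a long non-coding RNA. Many of them act on growth of the embryo and placenta: *Igf2* and its clearance receptor *Igf2r*, for example, are expressed from opposite parental alleles. In ESCs (embryonic stem cells) these genes are of interest because imprints can be lost in culture.

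The members described here are 34 well established imprinted genes, chosen by symbol, and 31 of them were found among the 21639 gene entries of the deposited RNA-Seq table. *Meg3*, *Mirg* and *Snrpn* were not analysed here. Each of the 31 symbols had a single entry. They fall into 9 clusters and 7 further genes that stand in domains of their own. Members were listed by the allele usually named as the expressed one, 10 of the 31 as maternal and 21 as paternal. The RNA-Seq values are totals over both alleles, so neither allelic expression nor methylation was measured, and a change of level does not show a gain or loss of imprinting.

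RNA-Seq was carried out on 3 mouse ESC lines, each in the undifferentiated state (D0) and after 3 days of differentiation (D3), which makes 6 conditions of 1 library each. The labels give the strain as V6.5, a male hybrid of 129SvJae and C57BL/6, and call all 6 samples ES cells, whereas the methods describe transgenic lines made in KH2 ESCs and D3 cells grown as embryoid bodies (EBs) without LIF. H2A.ZWT cells carry a doxycycline-inducible, YFP-tagged wild-type H2A.Z, and H2A.ZAP3 cells carry the same construct with 3 residues of the acidic patch replaced by those of H2A. Lentiviral hairpins against the 3′ untranslated region of endogenous H2A.Z were introduced into both transgenic lines, and H2A.ZKD stands for depletion of endogenous H2A.Z. The transgenic cells were sorted for YFP after viral infection, and the labels do not say that any line was a single clone. ESCs were grown on irradiated mouse embryonic fibroblasts except for the final passage. No condition has a second library and there is no replicate error, so no p-value is given, and each difference compares 2 libraries.

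Values are RPKM, the number of reads divided by the length of the transcript and by the size of the library, as the authors deposited them. Differences are log2((RPKM + 0.001)/(RPKM + 0.001)), where the pseudocount of 0.001 avoids division by 0 and understates changes of very low genes. A gene is called higher or lower when the difference passed 1.5-fold (0.58 on the log2 scale), the threshold of the study. Calls were counted over genes whose mean RPKM in the 6 libraries was at least 1, which 24 of the 31 members and 11842 of all entries reached. Library depth, estimated from the steps between the lowest RPKM values, lay between 18 and 26.8 M reads, so that 1 read on a transcript of 2 kb was worth 0.0187 to 0.0279 RPKM. From these depths and the longest annotated transcript of a gene, approximate read numbers and a 95% interval of each log2 difference (Clopper-Pearson, on the split of reads between 2 libraries) were computed, and this counting interval covers neither culture differences nor reads that are copies of one molecule.

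*H2afz*, which encodes H2A.Z and is targeted by the hairpins, was at 279 RPKM in H2A.ZWT, 343 RPKM in the library labelled H2A.ZKD and 304 RPKM in H2A.ZAP3 at D0, whereas the EB libraries had 258, 236 and 394 RPKM. The level was therefore not lower under the H2A.ZKD label at D0, and the deposited value does not separate endogenous *H2afz* from transgene reads in the coding exons. Defining ESC markers were present at both days: *Pou5f1* stood between 358 and 540 RPKM and *Zfp42* between 122 and 214 RPKM over the 6 libraries. Summed over 8 markers of extraembryonic endoderm the level was 17.2, 21.9 and 48.8 RPKM in ESCs of H2A.ZWT, the library labelled H2A.ZKD and H2A.ZAP3, and 79.0, 203 and 108 RPKM in EBs. Fibroblast markers, 10 genes, summed to 33.0, 27.9 and 50.9 RPKM in ESCs and 14.2, 8.28 and 11.3 RPKM in EBs of these lines. Markers of early mesoderm summed to 2.95 to 4.16 RPKM, with *Mesp1* at most at 0.0909 RPKM, and those of trophectoderm to 2.31 to 5.31 RPKM, with *Elf5* listed at 0 throughout.

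The 31 members spanned a wide range of levels. *Gnas*, which encodes the stimulatory G protein alpha subunit, had the highest mean at 152 RPKM, followed by the non-coding RNA *Rian* at 97.8 RPKM and *Impact*, an inhibitor of the translation kinase GCN2, at 61.5 RPKM. Another 8 members had a mean of at least 10 RPKM: *Peg10*, *Phlda2*, *Grb10*, *Igf2r*, *Cdkn1c*, *Peg3*, *Igf2* and *H19*. From 1 to 10 RPKM there were 13 members, and the remaining 7 (*Plagl1*, *Airn*, *Rtl1*, *Magel2*, *Nap1l5*, *Zim1* and *Usp29*) were below 1 RPKM on average. No member was listed at 0 in any library. These levels are per transcript length, and the order of neighbours such as *Phlda2* (37.2 RPKM) and *Grb10* (36.7 RPKM) was within the spread of either gene over the 6 libraries.

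**Figure D1:**
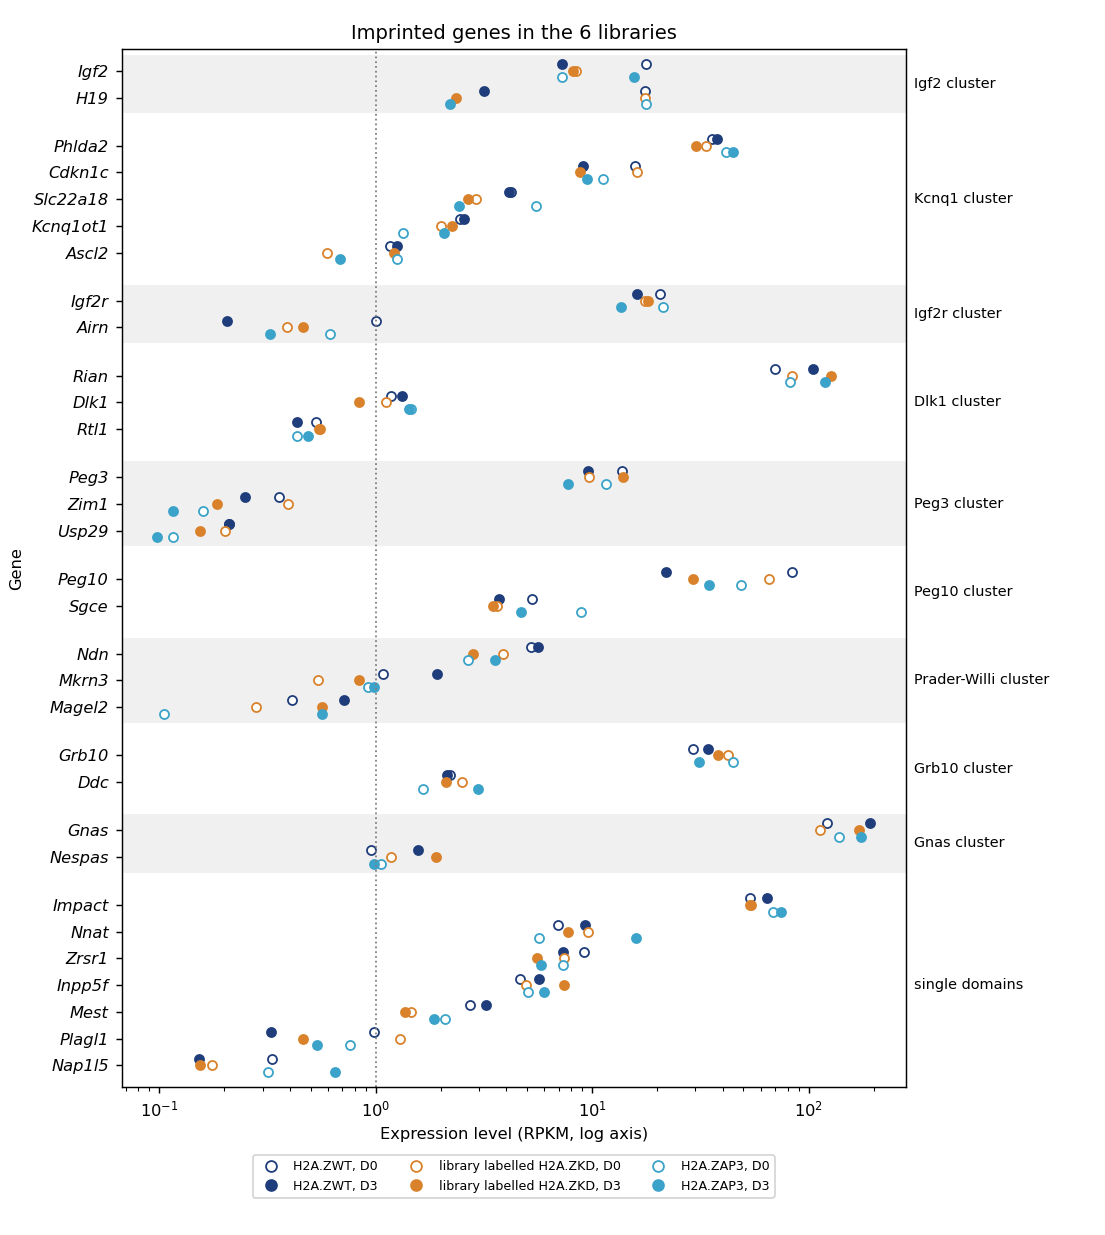
Expression level of the 31 imprinted genes in each of the 6 libraries, in RPKM on a log axis, grouped by cluster; open circles are ESCs (D0), filled circles are EBs (D3), colours are lines, and the dotted line marks 1 RPKM. *H19* separates by day in every line, between 17.5 and 17.7 RPKM at D0 and between 2.21 and 3.17 RPKM at D3, whereas the levels of *Igf2* do not.

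Imprints are kept in part by ZFP57, a zinc finger protein that recognises the letters TGCCGC when the CpG in them is methylated, and these letters were searched on both strands of the RefSeq promoter windows (GRCm38.p6, from 250 bases before to 50 bases after each gene start). Windows were found for 24 of the 31 members, 34 windows in all, and none was used for *H19*, *Rtl1*, *Peg10*, *Sgce*, *Cdkn1c*, *Impact* and *Nespas*. The letters were present in 8 of the 34 windows (23.5%), against 11.6% of all 32851 windows, and they belonged to *Grb10*, *Igf2*, *Mest*, *Nap1l5*, *Nnat*, *Plagl1* and *Zim1*. Overlapping windows of *Mest* hold the same matches. Counted by gene, the letters were in 7 of 24 members (29.2%), against 13.1% of all genes with windows. The member windows held a median of 15.0 CpG dinucleotides and all windows a median of 7.0. A window is not a control region, and a match is a match of letters only. The matches in the 4 of these genes that averaged 1 RPKM or more (*Grb10*, *Igf2*, *Mest* and *Nnat*) are shown on the strand of the gene, with the letters TGCCGC or, where the match is on the other strand, GCGGCA in capitals.
*Grb10* (chr11:12037381-12037406, − strand): gtgcggggagGCGGCAggaagggaag
*Igf2* (chr7:142661226-142661251, − strand): cggtgtcccaGCGGCAgcacagattt
*Mest*, distal (chr6:30737800-30737823, + strand): ccttgcccGCGGCAttaacacatg
*Mest*, proximal (chr6:30737973-30737998, + strand): gaggggcgctGCGGCAggatgggcgg
*Nnat* (chr2:157560095-157560120, + strand): caccggggctGCGGCAttgcgcccag

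*Igf2*, which encodes a fetal growth factor, differed between lines and days more than most members. In mm9 its − strand gene occupies chromosome 7, bases 149836673 to 149852721. ESCs had 17.8 RPKM in H2A.ZWT, 8.46 RPKM in the library labelled H2A.ZKD and 7.28 RPKM in H2A.ZAP3. At D3 the order was turned, with 7.23, 8.19 and 15.6 RPKM. The log2 difference of H2A.ZAP3 from H2A.ZWT was thus −1.29 at D0 (counting interval −1.41 to −1.17) and 1.11 at D3 (0.98 to 1.24). From D0 to D3 *Igf2* was lower in H2A.ZWT by a log2 difference of −1.30 and higher in H2A.ZAP3 by 1.1, while in the library labelled H2A.ZKD it differed by less than 1.5-fold.

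*H19*, the maternally expressed non-coding RNA that shares a control region and enhancers with *Igf2*, behaved otherwise. It lies on the same strand of chromosome 7 from 149761434 to 149764048. The 3 ESC libraries were nearly level, at 17.6 RPKM in H2A.ZWT, 17.5 RPKM in the library labelled H2A.ZKD and 17.7 RPKM in H2A.ZAP3. At D3 the level was 3.17 RPKM in H2A.ZWT, 2.36 RPKM in the library labelled H2A.ZKD and 2.21 RPKM in H2A.ZAP3, and the D0 and D3 values did not overlap. The log2 differences between days, −2.48, −2.89 and −3.00, were the largest of any of the 24 members in each line. Neither line passed 1.5-fold against H2A.ZWT at either day, with −0.42 and −0.52 at D3. The collagen genes *Col1a1* and *Col1a2*, which mark fibroblasts, also stood higher at D0 than at D3, but they were not level between ESC libraries: *Col1a1* was at 9.76, 7.42 and 15.5 RPKM in ESCs and 1.54, 0.923 and 2.57 RPKM in EBs in H2A.ZWT, the library labelled H2A.ZKD and H2A.ZAP3. Of the 5 fibroblast markers with a mean of at least 1 RPKM, 4 (*Col1a1*, *Col1a2*, *Col5a1* and *Pdgfrb*) were called lower at D3 in each line and *Thy1* was called higher. *Col3a1*, *Fap* and *Twist2*, all lower on average, had higher values at D0 than at D3 in each line too, while *Postn* and *Lum* were at most at 0.112 and 0.333 RPKM. Their part in the level of *H19* was not tested, and in such bulk samples fewer cells of a type and less RNA per cell cannot be told apart.

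*Peg10* and *Sgce* are paternally expressed neighbours on chromosome 6 that are transcribed away from each other, with 101 bases between their annotated starts. *Peg10* (4697306 to 4710514, + strand) derives from a retrotransposon and is needed for the placenta. It was at 83.5 RPKM in H2A.ZWT, 65.8 RPKM in the library labelled H2A.ZKD and 48.7 RPKM in H2A.ZAP3 at D0, whereas the EB libraries had 21.9, 29.1 and 34.8 RPKM. The order of the lines at D3 was the reverse of that at D0. Against H2A.ZWT, H2A.ZAP3 was lower by a log2 difference of −0.78 at D0 (counting interval −0.82 to −0.74) and higher by 0.67 at D3 (0.60 to 0.73). *Sgce* (4624350 to 4697204, − strand), which encodes epsilon-sarcoglycan, was at 5.25, 3.62 and 8.88 RPKM in ESCs and 3.72, 3.47 and 4.71 RPKM in EBs in the same order of lines. In H2A.ZAP3 ESCs it was therefore higher than in H2A.ZWT ESCs (log2 0.76, interval 0.52 to 0.99) and 2.45-fold higher than in the library labelled H2A.ZKD, whereas *Peg10* was lower. From D0 to D3 *Peg10* was lower in H2A.ZWT (−1.93) and in the library labelled H2A.ZKD (−1.18), and *Sgce* was lower by more than 1.5-fold in H2A.ZAP3 (−0.91).

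**Figure D2:**
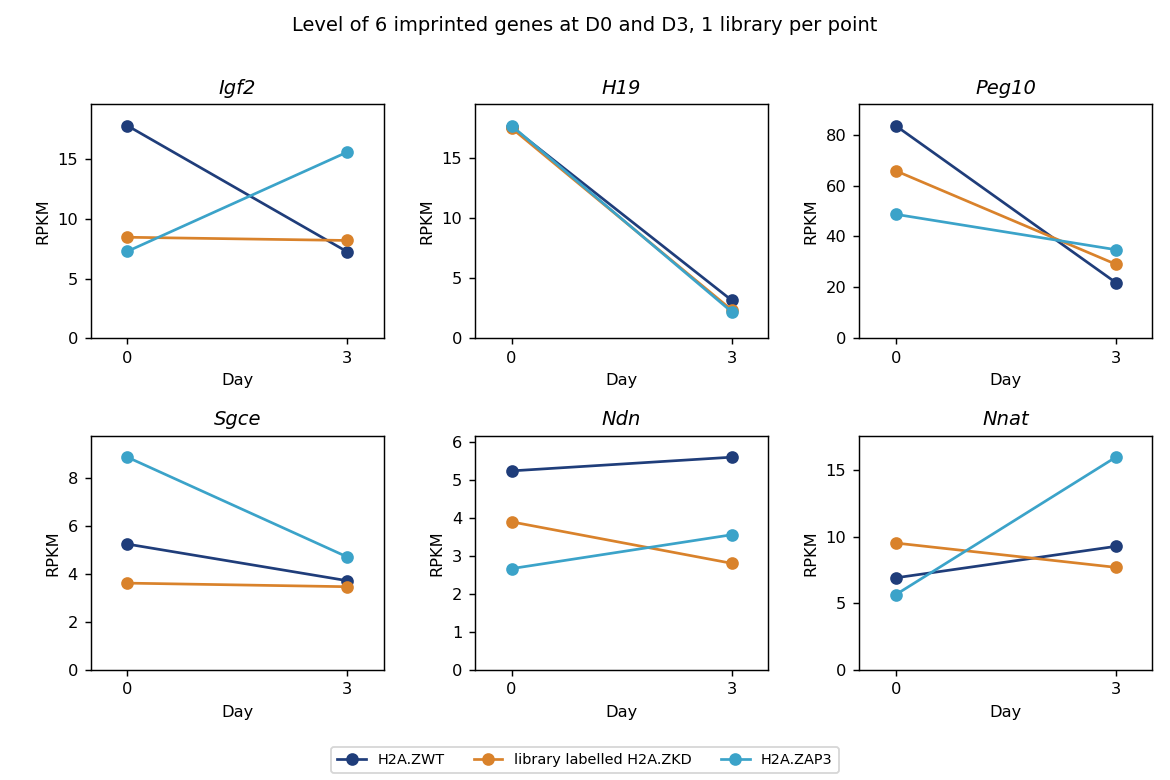
Level in RPKM at D0 and D3 of *Igf2*, *H19*, *Peg10*, *Sgce*, *Ndn* and *Nnat*, with 1 library per point, colours for the 3 lines and axes that start at 0. The lines of *Igf2* cross between the days, from 17.8 to 7.23 RPKM in H2A.ZWT and from 7.28 to 15.6 RPKM in H2A.ZAP3, and those of *H19* run together.

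The genes of the Prader-Willi cluster on chromosome 7 are expressed from the paternal allele, and in these libraries H2A.ZWT was above the other lines. *Ndn* (69493163 to 69494814, + strand), which encodes necdin, a MAGE family protein of postmitotic neurons, was at 5.23, 3.89 and 2.66 RPKM at D0 in H2A.ZWT, the library labelled H2A.ZKD and H2A.ZAP3. At D3 it was at 5.59, 2.80 and 3.55 RPKM, so that H2A.ZWT was above both other lines at each day. The difference passed 1.5-fold in H2A.ZAP3 at both days (log2 −0.98 and −0.66) and in the library labelled H2A.ZKD at D3 (−1.0, counting interval −1.33 to −0.66). *Mkrn3* (69562479 to 69565039, − strand), which encodes a ubiquitin ligase, was at 1.08, 0.540 and 0.922 RPKM in ESCs and 1.92, 0.835 and 0.980 RPKM in EBs. It was lower than H2A.ZWT in the library labelled H2A.ZKD at both days (−0.99 and −1.20) and in H2A.ZAP3 at D3 (−0.97). These levels rest on an estimated 26 to 101 reads. *Magel2*, another MAGE gene, was under 1 RPKM, with 0.409, 0.279 and 0.105 RPKM at D0 and 0.711, 0.566 and 0.567 RPKM at D3. All 3 genes had their highest value in H2A.ZWT at both days.

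*Mest*, a paternally expressed hydrolase gene on chromosome 6 (30673547 to 30698457, + strand), showed the same order at both days. H2A.ZWT was highest, with 2.72 RPKM at D0 and 3.23 RPKM at D3, the library labelled H2A.ZKD lowest, with 1.46 and 1.36 RPKM, and H2A.ZAP3 in between, with 2.09 and 1.86 RPKM. The log2 difference of the library labelled H2A.ZKD was −0.90 at D0 and −1.24 at D3, and that of H2A.ZAP3 was −0.38 and −0.79. Annotated exons of *Mest* overlap those of *Copg2* on the other strand over 904 bases. *Copg2* was far more abundant, at 33.5 to 49.0 RPKM, and use of strand in the counting is not given in the sources used here, so reads of the overlap cannot be told apart.

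*Nnat*, which encodes the small membrane proteolipid neuronatin and lies on chromosome 2 (157385814 to 157388258, + strand), had 6.92 RPKM in H2A.ZWT, 9.54 RPKM in the library labelled H2A.ZKD and 5.65 RPKM in H2A.ZAP3 at D0. At D3 it was at 9.29, 7.71 and 16.0 RPKM, and the H2A.ZAP3 EB value stood above the other 5 libraries. It was 1.72-fold higher than in H2A.ZWT EBs and 2.83-fold higher than in H2A.ZAP3 ESCs (log2 1.5, counting interval 1.27 to 1.74). The neural genes *Sox1* and *Pax6* also had their highest level in the H2A.ZAP3 EB library, at 9.70 and 7.80 RPKM. The other neural marker with a mean of at least 1 RPKM, *Nes*, did not, with 8.36, 8.38 and 5.61 RPKM in ESCs and 6.32, 4.56 and 6.18 RPKM in EBs. The part of these markers in the level of *Nnat* was not tested. *Impact*, *Zrsr1* (related to a splicing factor subunit) and *Inpp5f* (an inositol phosphatase) passed 1.5-fold in none of the 9 comparisons. In the order of H2A.ZWT, the library labelled H2A.ZKD and H2A.ZAP3, *Impact* had 53.7, 54.4 and 68.2 RPKM in ESCs and 64.3, 53.5 and 74.9 RPKM in EBs, highest in H2A.ZAP3 on each day. *Zrsr1* had 9.18, 7.44 and 7.36 RPKM in ESCs and 7.30, 5.53 and 5.80 RPKM in EBs, where H2A.ZWT was highest. *Inpp5f* was higher in EBs, with 5.65, 7.41 and 5.96 RPKM, than in ESCs, with 4.63, 4.95 and 5.04 RPKM. *Plagl1*, a zinc finger gene that was under 1 RPKM on average, was at 0.980, 1.3 and 0.764 RPKM in ESCs and 0.328, 0.460 and 0.534 RPKM in EBs, so that its ESC values were above all of its EB values. *Nap1l5*, related to nucleosome assembly proteins, was between 0.153 and 0.648 RPKM.

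In the *Kcnq1* cluster of chromosome 7 the paternal non-coding RNA *Kcnq1ot1* represses its neighbours, which are expressed from the maternal allele. *Kcnq1ot1* was at 2.46 RPKM in H2A.ZWT, 2.00 RPKM in the library labelled H2A.ZKD and 1.34 RPKM in H2A.ZAP3 at D0, whereas the EB libraries had 2.56, 2.25 and 2.06 RPKM. Only the H2A.ZAP3 ESC value was past 1.5-fold from H2A.ZWT (log2 −0.88), and no read estimate was made for it. *Cdkn1c*, which encodes the cell cycle inhibitor p57, was at 15.8, 16.1 and 11.2 RPKM in ESCs and 9.07, 8.75 and 9.46 RPKM in EBs. The EB values were lower than every ESC value, by a log2 difference of −0.81 in H2A.ZWT, −0.88 in the library labelled H2A.ZKD and, short of 1.5-fold, −0.24 in H2A.ZAP3. *Phlda2*, a brake on placental growth, had 35.6, 33.6 and 41.5 RPKM in ESCs and 37.6, 30.2 and 44.7 RPKM in EBs and passed 1.5-fold in no comparison.

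*Slc22a18*, a transporter gene of the same cluster (150659626 to 150685239, + strand), was at 4.20, 2.90 and 5.52 RPKM at D0 in H2A.ZWT, the library labelled H2A.ZKD and H2A.ZAP3. At D3 it was at 4.12, 2.66 and 2.42 RPKM. H2A.ZWT was thus level between days while H2A.ZAP3 was lower at D3 (log2 −1.19, counting interval −1.57 to −0.82). *Ascl2*, which encodes a transcription factor of the trophoblast, was low, with 1.16, 0.594 and 1.26 RPKM at D0 and 1.25, 1.22 and 0.686 RPKM at D3. A low value occurred once at each day, in the library labelled H2A.ZKD at D0 (18 estimated reads) and in H2A.ZAP3 at D3 (24 estimated reads). Their log2 differences from H2A.ZWT were −0.97 (interval −1.88 to −0.10) and −0.86 (−1.63 to −0.07).

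*Grb10*, which encodes an adaptor that restrains insulin and IGF receptor signalling, was at 29.1, 42.6 and 44.9 RPKM in ESCs and 34.2, 38.1 and 31.2 RPKM in EBs. Its gene occupies chromosome 11, from 11830511 to 11938686 on the − strand. In H2A.ZAP3 ESCs it was just past the threshold against H2A.ZWT (log2 0.63, counting interval 0.56 to 0.70), and in the library labelled H2A.ZKD it was just short of it (0.55). Its neighbour *Ddc*, the gene of dopa decarboxylase, was at 2.20, 2.51 and 1.66 RPKM in ESCs and 2.13, 2.12 and 2.96 RPKM in EBs. The lowest and the highest of these values were both from H2A.ZAP3, which differed between days by a log2 value of 0.83.

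*Igf2r*, whose product carries IGF2 to the lysosome, had 20.6, 17.6 and 21.2 RPKM in ESCs and 16.1, 18.1 and 13.6 RPKM in EBs and passed 1.5-fold once, in H2A.ZAP3 from D0 to D3 (log2 −0.64). *Airn*, the antisense RNA that silences paternal *Igf2r*, was at 1.00, 0.389 and 0.617 RPKM in ESCs and 0.205, 0.462 and 0.326 RPKM in EBs, on an estimated 6 to 25 reads. In the library labelled H2A.ZKD it was thus under H2A.ZWT at D0 (log2 −1.36) and above it at D3 (1.17, counting interval −0.27 to 2.77). The deposited table gives *Airn* and *Igf2r* the same locus, and their entries may share reads. *Gnas* was at 121, 113 and 138 RPKM in ESCs and 193, 171 and 175 RPKM in EBs, every EB value above every ESC value. The difference was past 1.5-fold in H2A.ZWT (0.68) and in the library labelled H2A.ZKD (0.60) and short of it in H2A.ZAP3 (0.34). Its antisense neighbour *Nespas* was at 0.954, 1.17 and 1.06 RPKM in ESCs and 1.56, 1.89 and 0.986 RPKM in EBs. *Nespas* exons overlap those of *Gnas* over 988 bases, and reads there cannot be told apart without strand.

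*Rian*, a maternally expressed RNA of the *Dlk1* cluster that hosts small nucleolar RNAs, was at 70.0, 84.0 and 81.7 RPKM in ESCs and 105, 127 and 119 RPKM in EBs. All EB values were above all ESC values, and the log2 difference was 0.59 in H2A.ZWT and 0.60 in the library labelled H2A.ZKD, both just past the threshold, and 0.54 in H2A.ZAP3. The paternally expressed genes of the cluster were much lower. *Dlk1*, which encodes a transmembrane protein related to Notch ligands, was at 1.18, 1.11 and 1.45 RPKM in ESCs and 1.32, 0.840 and 1.43 RPKM in EBs, and it was past the threshold against H2A.ZWT in the library labelled H2A.ZKD at D3 (−0.65). *Rtl1*, another gene derived from a retrotransposon, was between 0.433 and 0.550 RPKM, the narrowest range of the 31 members in fold (1.27 between highest and lowest). *Peg3*, a zinc finger gene on proximal chromosome 7, was at 13.7, 9.65 and 11.6 RPKM in ESCs and 9.54, 13.9 and 7.73 RPKM in EBs. The library labelled H2A.ZKD was lowest at D0 and highest at D3, and only the EB difference between H2A.ZAP3 and that library was past 1.5-fold (−0.84). *Usp29* and *Zim1*, next to *Peg3*, were between 0.0978 and 0.394 RPKM, and the H2A.ZAP3 library had the lowest value of each gene at both days.

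The comparison of H2A.ZAP3 with H2A.ZWT asks how the acidic patch of H2A.Z bears on the level of these genes. In ESCs 2 of the 24 members were higher (*Grb10* and *Sgce*) and 4 lower (*Igf2*, *Kcnq1ot1*, *Ndn* and *Peg10*). Of all genes tested 6.80% were higher and 5.49% lower in that comparison. Cell type markers moved with it: 5 of 7 tested markers of extraembryonic endoderm were called higher in H2A.ZAP3 ESCs and 0 lower (median log2 1.47), as were 2 of 5 tested fibroblast markers (median 0.47), the ESC marker *Sox2* was called lower, and their part in the member differences was not tested. In EBs 3 members were higher (*Igf2*, *Nnat* and *Peg10*; 4.05% of all genes) and 6 lower (*Ascl2*, *Mest*, *Mkrn3*, *Ndn*, *Nespas* and *Slc22a18*; 5.21% of all genes). At that day 3 of 5 fibroblast markers were called higher and 1, *Thy1*, lower (median 0.69), 2 of 7 endoderm markers were called higher and 1 lower, 1 of 3 neural markers (*Sox1*) was called higher, and the part of these markers was not tested either. The median log2 difference of the members was 0.02 at D0 and −0.14 at D3, beside 0.00 and 0.00 for all genes. The share called differed with level. Among genes of 1 to 10 RPKM, 3 of 13 members and 18.6% of all genes were called at D0, and 7 of 13 members and 15.3% of all genes at D3. From 10 RPKM upward the counts were 3 of 11 members and 6.14% of all genes at D0, and 2 of 11 members and 3.44% of all genes at D3. With a pseudocount of 1 in place of 0.001, the 3 higher members remained called in EBs and none of the lower ones did.

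Against H2A.ZWT, the library labelled H2A.ZKD had none of the 24 members past 1.5-fold higher at either day. At D0 4 members were lower (*Ascl2*, *Igf2*, *Mest* and *Mkrn3*), and at D3 5 were (*Dlk1*, *Mest*, *Mkrn3*, *Ndn* and *Slc22a18*). The shares over all genes were 2.94% higher and 4.02% lower at D0 and 3.23% higher and 4.53% lower at D3. Extraembryonic endoderm markers moved here as well, with 3 of 7 called higher at D0 and 6 of 7 at D3, and 4 of 5 fibroblast markers were called lower at D3. *Pax6* was called lower at D3, and *Krt7*, the one trophectoderm marker tested, was called lower than in H2A.ZWT at both days in this library and in H2A.ZAP3. Their part in the member differences was not tested. The member medians were −0.16 and −0.13, beside −0.03 for all genes at both days. Of the 13 members between 1 and 10 RPKM, 3 were called at D0 (12.2% of all genes of that level) and 5 at D3 (12.9%), and of the 11 above, 1 at D0 (1.88%) and 0 at D3 (2.78%). This comparison uses the same H2A.ZWT libraries as that of H2A.ZAP3, so a high H2A.ZWT value enters both. The values of H2A.ZAP3 and the library labelled H2A.ZKD were also compared directly. At D0 4 members were higher in H2A.ZAP3 (*Ascl2*, *Mkrn3*, *Sgce* and *Slc22a18*; 10.5% of all genes) and 2 lower (*Ddc* and *Nnat*; 6.13%). At D3 3 were higher (*Dlk1*, *Igf2* and *Nnat*; 5.49%) and 3 lower (*Ascl2*, *Nespas* and *Peg3*; 5.07%). Beside these, 4 of 7 endoderm markers were called higher in H2A.ZAP3 at D0 and 1 lower (median log2 1.1) while *Sox2* was lower, and at D3 0 were called higher and 5 lower (median −0.80). Fibroblast markers were called higher in 4 of 5 at both days (*Thy1* was called lower at D3), and of the neural markers *Pax6* was called lower at D0 and *Sox1* and *Pax6* higher at D3, all of which was not tested as a part of the member differences.

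**Figure D3:**
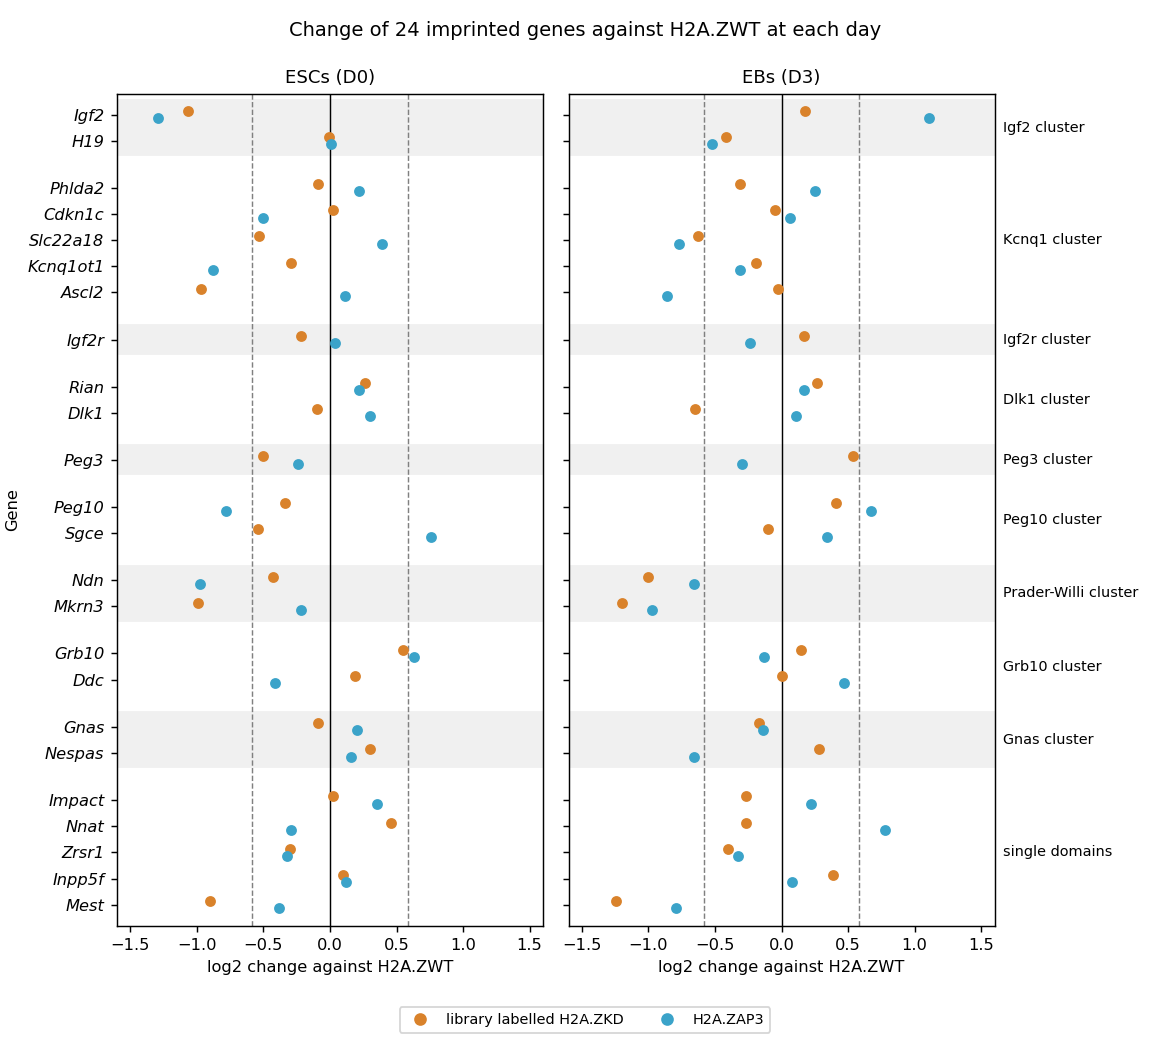
Log2 difference from H2A.ZWT of the 24 members with a mean of at least 1 RPKM, in ESCs (left) and EBs (right), for H2A.ZAP3 and the library labelled H2A.ZKD; dashed lines mark 1.5-fold. *Igf2* moves from −1.29 to 1.11 in H2A.ZAP3, and *Mest*, *Mkrn3* and *Ndn* are below 0 in all 4 comparisons.

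Differentiation from ESCs to EBs was compared within each line, and 7, 7 and 5 of 7 tested extraembryonic endoderm markers were called higher at D3 in H2A.ZWT, the library labelled H2A.ZKD and H2A.ZAP3, and 4 of 5 fibroblast markers lower in each line (medians −2.29, −2.47 and −2.06). Of the neural markers *Sox1* was called higher in H2A.ZWT, *Nes* lower in the library labelled H2A.ZKD, and *Sox1* and *Pax6* higher in H2A.ZAP3. The mesoderm marker *Eomes* was called higher in each line, and of the 7 ESC markers *Tdgf1* was called lower in H2A.ZWT, *Esrrb* and *Zfp42* in the library labelled H2A.ZKD and *Esrrb* in H2A.ZAP3. The part of these markers in the member differences was not tested. In H2A.ZWT 4 members were higher at D3 (*Gnas*, *Mkrn3*, *Nespas* and *Rian*; 11.4% of all genes) and 4 lower (*Cdkn1c*, *H19*, *Igf2* and *Peg10*; 9.53%). In the library labelled H2A.ZKD 5 were higher (*Ascl2* and the same 4 as in H2A.ZWT; 11.5% of all genes) and 3 lower (*Cdkn1c*, *H19* and *Peg10*; 8.86%). H2A.ZAP3 had 4 higher (*Ddc*, *Igf2*, *Kcnq1ot1* and *Nnat*; 10.8%) and 5 lower (*Ascl2*, *H19*, *Igf2r*, *Sgce* and *Slc22a18*; 11.5%). *H19* was the one of the 24 members called in all 3 lines, and the share of all genes called in all 3 was not counted. Below 1 RPKM on average, *Magel2* was past 1.5-fold higher at D3 in all 3 lines (0.80, 1.0 and 2.42). The median log2 difference of the members was 0.09, −0.08 and −0.07 in the order of H2A.ZWT, the library labelled H2A.ZKD and H2A.ZAP3, and that of all genes was 0.04, 0.04 and 0.05. Several calls lay close to the threshold: with each pair of libraries centred on its median ratio, 5 in place of 8 members were called in the library labelled H2A.ZKD.

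**Figure D4:**
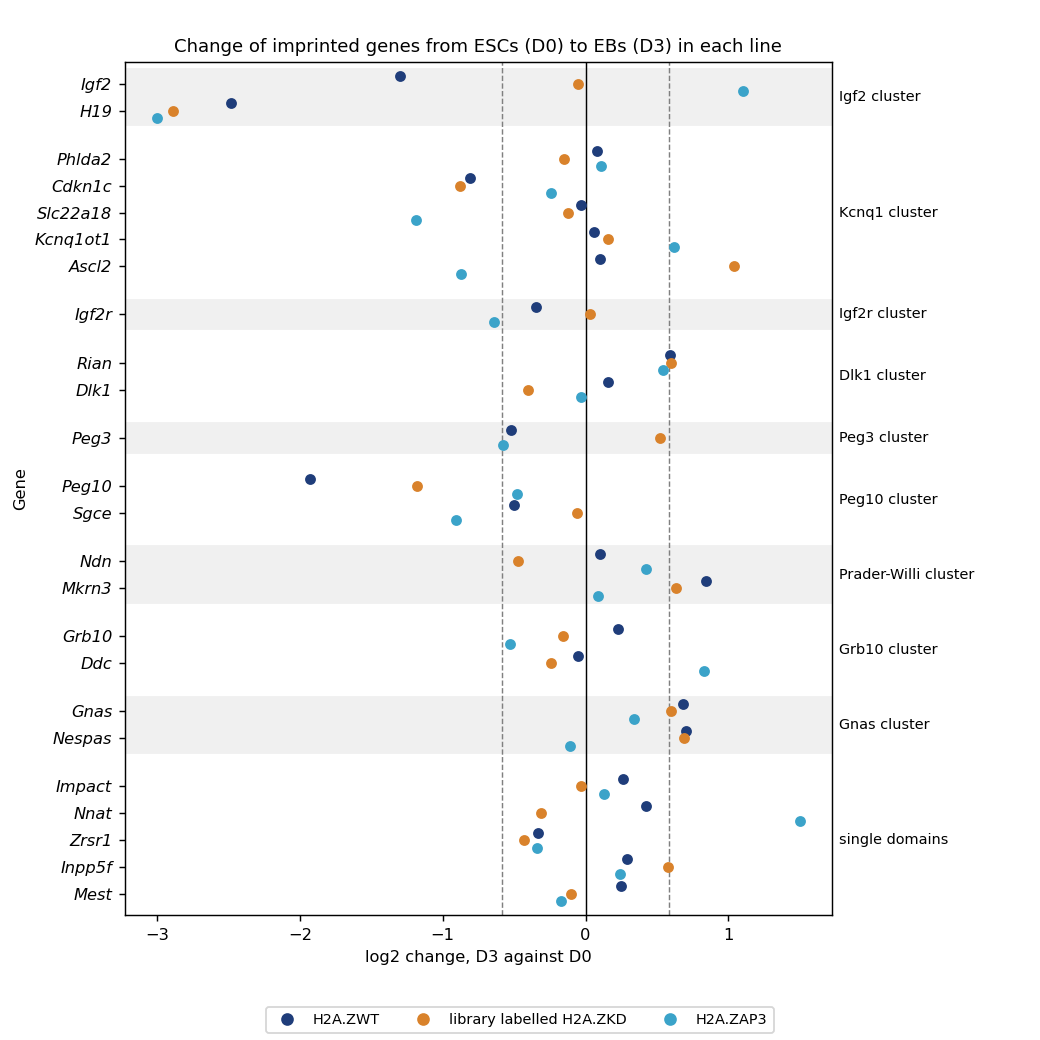
Log2 difference of D3 from D0 for the 24 members with a mean of at least 1 RPKM, with 1 point for each line and dashed lines at 1.5-fold. *H19* lies at −2.48, −2.89 and −3.00 in the 3 lines, and *Igf2* lies at −1.30 in H2A.ZWT and 1.1 in H2A.ZAP3.

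Over the 9 comparisons 20 of the 24 members were called at least once, in 61 pairs of a member and a comparison, and 45.9% of all genes tested were. Between 1 and 10 RPKM this was 11 of 13 members and 61.8% of all genes, and from 10 RPKM upward 9 of 11 members and 30.4%. The 9 comparisons share libraries, so the calls of a gene are not independent. *Impact*, *Inpp5f*, *Phlda2* and *Zrsr1* were not called. For 59 of these pairs reads could be estimated, and the counting interval left out 0 in 58, the exception being *Mkrn3* in the library labelled H2A.ZKD between days. In 26 pairs the whole interval was past 1.5-fold. The pairs were chosen by the same differences, so these interval counts add no support to the calls. They were not made over all genes. Split by the usual allele, 1 of 9 maternal members (*Grb10*) and 5 of 15 paternal members were called in H2A.ZAP3 ESCs against H2A.ZWT, with median log2 differences of 0.20 and −0.29, where 12.3% of all genes were called. At D3 the counts were 2 and 7 (9.26% of all genes), with medians of −0.14 and 0.08, so the sign of each list's median changed between days. No difference between the lists was tested.

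Genes that keep imprints were measured in the same libraries, as a list of 20 that all had a mean of at least 1 RPKM. *Zfp57* was at 138, 91.8 and 170 RPKM at D0 in H2A.ZWT, the library labelled H2A.ZKD and H2A.ZAP3, and at 66.0, 60.2 and 61.9 RPKM at D3, lower in every line. Its cofactor gene *Trim28* was at 353, 343 and 236 RPKM in ESCs and 316, 319 and 329 RPKM in EBs. *Dppa3*, whose product protects maternal methylation in the zygote, was lower in H2A.ZAP3 ESCs than in H2A.ZWT ESCs, at 16.6 against 37.9 RPKM (log2 −1.19). It was the only gene of the list called in that comparison (12.3% of all genes). In the library labelled H2A.ZKD only *Zfp57* was called against H2A.ZWT at D0 (log2 −0.59, 6.96% of all genes). Between H2A.ZAP3 and that library at D0, *Zfp57* was higher (0.89) and *Dppa3* lower (−1.03) in H2A.ZAP3 (16.6% of all genes). At D3 no gene of the list was called in either line against H2A.ZWT (9.26% of all genes in H2A.ZAP3 and 7.77% in the library labelled H2A.ZKD). Between days *Tet1* and *Tet2*, which encode methylcytosine oxidases, were lower and the methyltransferase gene *Dnmt3b* was higher at D3 in all 3 lines, with *Dnmt3b* at 30.7 against 105 RPKM in H2A.ZAP3. The maintenance methyltransferase gene *Dnmt1* was between 46.2 and 55.8 RPKM over the 6 libraries.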

How the data were processed

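Libraries of poly(A) RNA were sequenced by the authors on an Illumina instrument as single-end reads. Per the methods and the submitters' processing notes, reads were placed on mm9 by Tophat with Bowtie 0.12.7, and Cufflinks 1.3.0 gave the level of each gene. The deposited table holds RPKM values per gene and library. It also holds log2 ratios between libraries, the authors' own comparisons, which were not used. The members and gene lists were chosen with earlier results of these data known.

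Each column was matched to its sample by name. Members were matched by symbol, and all were accounted for, those with a mean of at least 1 RPKM by the value in every library and the others by value or range. Log2 differences used a pseudocount of 0.001 RPKM and calls a threshold of 1.5-fold. No test was run, since each condition has 1 library. Gene positions, strands, exons and transcript lengths came from GENCODE vM1 on NCBIM37 (mm9); *Kcnq1ot1* was not matched there. The locus of 14 members in the deposited table is also given to other entries. Depth was estimated on 3696 genes with 1 annotated transcript over 1.5 kb and searched between 12 and 35 M reads, and it is approximate. The scripts were tested on simulated data. Alternatives were pseudocounts of 0.1 and 1, no filter, a 2-fold threshold, centring on the median ratio and summing entries per symbol. Intervals came from scipy 1.17.1, tables from pandas 2.3.3 and numpy 2.4.6, and plots from matplotlib 3.10.9, under Python 3.11.15.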

Additional observations from a re-analysis of the deposited data

Results flagged for a closer look

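Among the 24 members that averaged 1 RPKM or more, *Igf2*, *Peg10*, *Nnat* and *Ascl2* passed 1.5-fold in opposite directions in the same comparison at the 2 days or in 2 lines. The share of all genes that did so was not counted, so these cases are not shown to be unusual. None of these differences was tested, since each condition has 1 library. For *Igf2* the log2 difference of H2A.ZAP3 from H2A.ZWT was −1.29 at D0 and 1.11 at D3, a shift of 2.40. Seen between days, *Igf2* was at −1.30 in H2A.ZWT and 1.1 in H2A.ZAP3, again 2.40 apart, from the same 4 libraries. *Peg10* stood at −0.78 at D0 and 0.67 at D3 in H2A.ZAP3 against H2A.ZWT, a shift of 1.45. *Nnat* in H2A.ZAP3 against the library labelled H2A.ZKD was at −0.76 at D0 and 1.05 at D3, 1.81 apart. *Ascl2* in the same comparison was at 1.08 at D0 and −0.83 at D3, a shift of −1.91, and its change from D0 to D3 was 1.04 in the library labelled H2A.ZKD and −0.87 in H2A.ZAP3, which also differ by −1.91. The *Ascl2* values rest on an estimated 18 to 54 reads per library in that comparison. Below 1 RPKM, *Airn* (−0.70 at D0 and 0.66 at D3 in H2A.ZAP3 against H2A.ZWT, −1.36 and 1.17 in the library labelled H2A.ZKD) and *Nap1l5* (from D0 to D3, −1.10 in H2A.ZWT and 1.03 in H2A.ZAP3) also passed 1.5-fold in opposite directions. Of these *Airn* values, only that of the library labelled H2A.ZKD at D0 had a counting interval that left out 0 (−2.60 to −0.26). The interval of *Nap1l5* was −2.79 to 0.49 in H2A.ZWT, on 6 and 11 estimated reads, and 0.07 to 2.01 in H2A.ZAP3.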

How the results depend on the processing

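None of the alternatives could turn the direction of a call. They keep the sign of a difference or, with centring, shift it by far less than the threshold. Summing entries per symbol and a pseudocount of 0.1 left the 9 counts of called members within 1.5 times. A pseudocount of 1 lowered the count for H2A.ZAP3 against H2A.ZWT at D3 from 9 to 3 (4.72% of all genes), for the library labelled H2A.ZKD against H2A.ZWT from 4 to 2 at D0 (3.16%) and from 5 to 3 at D3 (3.39%), for H2A.ZAP3 against the library labelled H2A.ZKD from 6 to 3 at D0 (10.7%) and at D3 (5.84%), and between days from 8 to 5 in H2A.ZWT (15.1%) and in the library labelled H2A.ZKD (14.3%). Without the filter, 10 of 31 members were called for H2A.ZAP3 against H2A.ZWT at D0 (25% of all 21639 entries), 14 at D3 (22.1%), and 12 for H2A.ZAP3 against the library labelled H2A.ZKD at D0 (27%). At 2-fold the counts were 1 at D0 (3.45% of all genes) and 1 at D3 (2.56%) for H2A.ZAP3 against H2A.ZWT, 1 (1.70%) and 2 (2.05%) for the library labelled H2A.ZKD against H2A.ZWT, 2 (5.29%) and 1 (2.94%) for H2A.ZAP3 against that library, and 3 (8.54%), 3 (8.35%) and 4 (8.49%) between days in H2A.ZWT, the library labelled H2A.ZKD and H2A.ZAP3. Centring on the median ratio moved 1 count by over 1.5 times, that between days in the library labelled H2A.ZKD, from 8 to 5 (19.9%). Of the 61 calls, 58 held with a pseudocount of 0.1, 35 with a pseudocount of 1, 56 with centring and 18 at 2-fold. No paired analysis was possible because the labels give no replicate numbers, except a pairing of D3 with D0 by line, which was not run since the lines are themselves the conditions compared. With 1 library in each arm, no library of a comparison could be left out.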

Other observations

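Other imprinted genes and neighbours of the clusters were described from a list of 42, of which 40 were found and 21 had a mean of at least 1 RPKM. Between days *Slc38a4*, an amino acid transporter gene, was lower at D3 in every line, at 56.4 against 22.9 RPKM in H2A.ZWT, 42.8 against 22.9 RPKM in the library labelled H2A.ZKD and 53.3 against 26.7 RPKM in H2A.ZAP3. *Cobl*, a neighbour of *Grb10* that encodes an actin nucleator, was lower in every line too, at 28.9 against 14.5 RPKM in H2A.ZWT. *Sfmbt2*, a Polycomb group gene, was lower than H2A.ZWT in H2A.ZAP3 at both days, at 3.22 against 6.61 RPKM at D0 and 2.53 against 4.48 RPKM at D3. It was also called lower in the library labelled H2A.ZKD at D0, at 4.12 RPKM (log2 −0.68). *Pon2*, in the domain of *Peg10*, was higher in H2A.ZAP3 EBs than in H2A.ZWT EBs, at 2.61 against 1.09 RPKM. Against H2A.ZWT, H2A.ZAP3 had 0 genes of this list higher and 2 lower at D0 and 1 higher and 1 lower at D3. The library labelled H2A.ZKD had 0 higher and 2 lower at D0 and 0 higher and 1 lower at D3. The shares over all genes in these comparisons are given above.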
